A study of Mus musculus with 8 samples.

Results

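The genes of the noncollagenous glycoproteins of the tectorial membrane were Tecta, Tectb, Otog, Otogl, Otoa and Ceacam16, 6 of the 21895 genes listed for the mouse cochlea. They were taken by gene symbol, and all 6 were found. Tectb was selected on its FPKM, which an earlier analysis of these same libraries had found lower in the KO than in the WT mice, so its difference between KO and WT is given here as a description, without a test. The other 5 genes were chosen for their products and not for their own difference.

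The study asked how loss of miR-29a changes the cochlea, and sequenced the cochlear RNA of wild-type (WT) mice and of mice lacking miR-29a (KO, miR-29a-/-), from a miR-29a-deficient strain kept on the C57BL/6 background. Each group had 4 libraries, numbered WT1 to WT4 in the wild type and KO1 to KO4 in the knockout. The series text gives the age of the mice as 21 days, whereas the study's methods give 2 months, and both groups are described with the same age in each source. No source used here says that each library is a separate animal, so the p-values measure only the spread between these libraries, which may in part be technical. The whole cochlea was used without selection of cells, so fewer cells of a type and less RNA per cell cannot be told apart. The deleted microRNA was not measured in these data, so it gives no check of the genotype labels.

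The tectorial membrane is a sheet of extracellular matrix that lies over the organ of Corti and touches the tips of the outer hair cell stereocilia, so that movement of the basilar membrane bends the hair bundles. It holds collagen fibrils embedded in a striated sheet built from alpha-tectorin (Tecta) and beta-tectorin (Tectb), both of which carry a zona pellucida (ZP) module through which such proteins polymerize. Otogelin (Otog) and otogelin-like (Otogl) are large mucin-related paralogs of the acellular membranes of the inner ear. CEACAM16 is a secreted immunoglobulin-type protein that joins this sheet, and otoancorin (Otoa) anchors the membrane to the spiral limbus. Transcripts of the tectorins are known to be most abundant around birth and to decline as the cochlea matures.

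miR-29a acts through its seed, bases 2 to 8 of the mature strand, which pairs with complementary sites in the 3'-UTR of messenger RNAs. The mature sequences (RefSeq, GRCm38.p6) are shown because miR-29b and miR-29c, which other genes encode, share this seed (in capitals).
mmu-miR-29a-3p: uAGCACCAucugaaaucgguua
mmu-miR-29b-3p: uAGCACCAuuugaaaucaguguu
mmu-miR-29c-3p: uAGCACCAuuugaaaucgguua
The mature miR-29a is encoded at chr6:31062673-31062694 on the minus strand, and 1 of the copies of miR-29b next to it, at chr6:31063025-31063047.

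The DNA letters complementary to the seed, TGGTGCT, were searched on the transcript strand in the longest annotated 3'-UTR of each gene (GENCODE mouse release 21, GRCm38). Of the 6 genes, Tectb alone held this 7-base sequence, once, whereas it occurred in 13.2% of the 20871 listed genes with a 3'-UTR of at least 20 bases. The Tectb match is followed by an A, and this 8-base form occurred in 2.87% of those genes. The longest 3'-UTRs of those genes had a median length of 968 bases, and that of Tectb has 1605. The shorter sequence GGTGCT, which is contained in the longer one, was present in Otog and Tecta as well, and in 28.5% of those genes. The matches are printed with the matching letters in capitals, since they are where the genes differ.
Tectb: tgtatctcaaccTGGTGCTatgga
Otog: ccaatcccagagGGTGCTggaca
Tecta: cgaactcagGGTGCTttctt
The Tectb match lies at bases 1561 to 1567 of a 3'-UTR of 1605 bases, at chr19:55196269-55196275 on the plus strand. That 3'-UTR belongs to the 2725-base transcript, and the other annotated Tectb transcript with a 3'-UTR, of 1349 bases, ends after 161 bases of 3'-UTR and lacks the match. The FPKM of a gene does not tell these transcripts apart. The Otog match lies at chr7:46310940-46310945 on the plus strand and the Tecta match at chr9:42330210-42330215 on the minus strand. No such letters were found in the longest 3'-UTRs of Otogl (1779 bases), Otoa (166 bases) and Ceacam16 (206 bases). A match is a description of the letters, and binding was not measured.

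The levels are FPKM, in which fragments are divided by transcript length in kilobases and by the mapped total, so they can be set side by side between genes. The total FPKM of the libraries ranged from 249221 to 288695, and their relative depth from 0.952 to 1.17. Depth was taken from the most common ratio between a library and KO1 in values under 0.1 FPKM, relative to the median library. From genes with a single annotated transcript, 1 fragment in a transcript of 1000 bases was estimated to be worth 0.0379 to 0.0465 FPKM. This is approximate, since 55.1% to 59.0% of the low values of these genes lay within 0.1 of a whole number of fragments. WT1 stood apart, with a correlation of 0.725 to 0.821 with the other WT libraries across tested genes, against 0.915 to 0.962 among those. Differences of the 6 genes, and calls in the gene lists, are therefore also given without WT1.

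Ceacam16 had the highest level of the 6 genes in every library, and Tectb was the lowest in 7 of 8. Ceacam16 (ENSMUSG00000014686, chromosome 7, 19852097 to 19861299) had a mean FPKM of 64.0 over the 8 libraries. Otoa (ENSMUSG00000034990, chromosome 7, 121081650 to 121163097) had 13.9, Otog (ENSMUSG00000009487, chromosome 7, 46240987 to 46311434) had 12.2, and Otogl (ENSMUSG00000091455, chromosome 10, 107760531 to 107912134) had 4.99. Tecta (ENSMUSG00000037705, chromosome 9, 42329619 to 42399929) had 1.81 and Tectb (ENSMUSG00000024979, chromosome 19, 55180733 to 55196313) had 1.01. The coordinates are on GRCm38 and cover each whole gene. Ceacam16 was above Otoa, Otog above Otogl and Otogl above Tecta in 8 of 8 libraries each. Otoa was above Otog in 6 of 8, with a mean log2 difference of 0.23 ± 0.30 (SD, n = 8), which is within its spread. Tecta was above Tectb in 7 of 8 libraries, namely in 3 of 4 WT and 4 of 4 KO libraries.

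Tectb, one of the structural tectorins of the striated sheet, had an FPKM of 0.824 in WT1, 1.58 in WT2, 1.95 in WT3 and 1.40 in WT4. In the KO libraries its FPKM was 0.362 in KO1, 0.462 in KO2, 0.554 in KO3 and 0.936 in KO4. WT2, WT3 and WT4 were above all KO libraries, but WT1 was below KO4, so the groups overlapped. WT libraries averaged 1.44 ± 0.469 FPKM (SD, n = 4) and KO libraries 0.578 ± 0.251 (SD, n = 4), a ratio of 0.402. On the scale of log2(FPKM + 0.1), the difference was -1.19, against a pooled SD within groups of 0.49. Without WT1 it was -1.42. The median log2 difference of all 14990 tested genes was 0.10, which puts Tectb 1.29 below it.

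Relatively few fragments stood behind the Tectb values. If all came from the 2725-base transcript, they were about 58, 96, 121 and 82 in WT1 to WT4 and 26, 28, 35 and 57 in KO1 to KO4. The 95% Poisson interval, which covers counting error only, was 0.626 to 1.07 FPKM for WT1 and 0.709 to 1.21 for KO4, so the libraries that cross between the groups could not be ordered at this depth. The interval was 0.386 to 0.770 in KO3 and 1.11 to 1.74 in WT4, which do not overlap. However, the WT1 interval also overlapped those of KO2 (0.307 to 0.668) and KO3, and the KO4 interval overlapped that of WT4. For comparison, the lowest Tecta value, in WT1, rested on about 187 fragments by the same estimate.

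**Figure D1:**
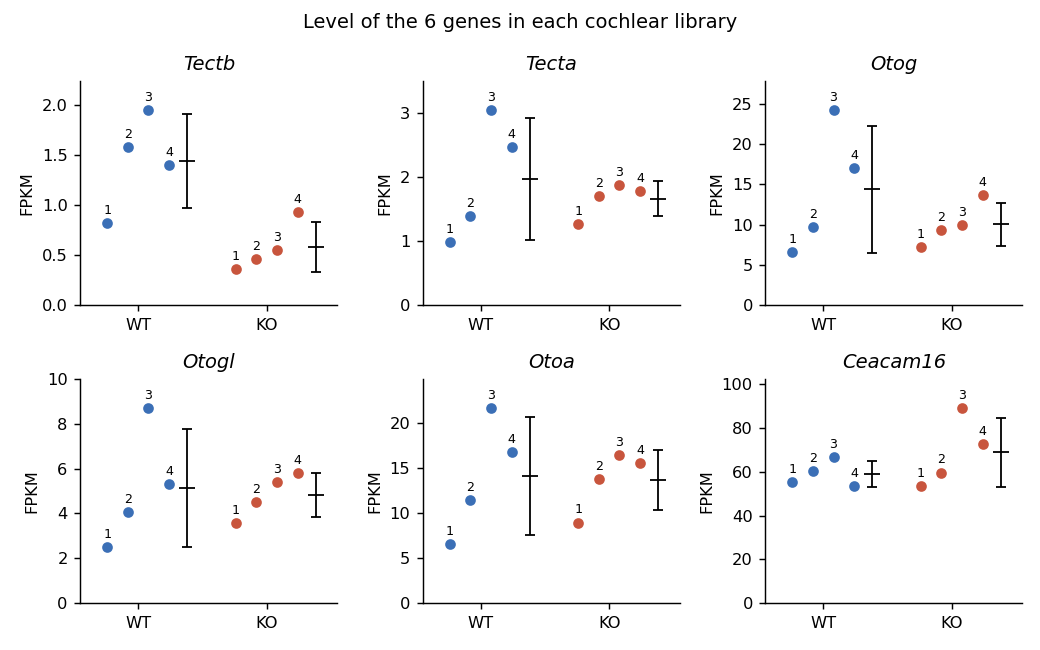
FPKM of each of the 6 genes (y axis, from 0) in the 4 WT and 4 KO libraries, with points numbered by library and bars for mean ± SD (n = 4 per group). Tectb lies between 0.362 and 0.936 in KO and between 0.824 and 1.95 in WT, whereas the KO values of the other genes lie largely within the range of the WT values.

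Over the whole table, 767 of 14990 tested genes (5.12%) had an unadjusted p-value under 0.05 in limma, of which 691 were higher and 76 (0.507% of the tested genes) lower in KO. Among those lower, the log2 difference of Tectb lay between Gbp10 at -1.27 and Rbm12b1 at -1.12. This place comes from the values on which Tectb was selected, and nothing is read from it. With Benjamini-Hochberg adjustment 0 genes passed in limma with all 8 libraries, and 0 passed without WT1. With libraries scaled to each other by median gene ratios, 401 genes were higher and 362 lower, compared with 691 and 76 as deposited, and the Tectb difference was -1.28.

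Tecta, whose product is the main noncollagenous protein of the membrane, had an FPKM of 0.981, 1.40, 3.04 and 2.47 in WT1 to WT4. In KO1 to KO4 it had 1.26, 1.70, 1.87 and 1.79. All 4 KO values lay inside the range of the WT values. The log2 difference was -0.13 (SE 0.36, 95% interval -0.94 to 0.69), with p = 0.728 and an adjusted p-value of 0.983 in limma and p = 0.714 in the exact two-sided permutation test. Without WT1 it was -0.40 (adjusted p = 0.482 in limma).

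Within a library, Tectb was therefore compared with Tecta directly, which removes what scales both genes alike. The ratio of Tectb to Tecta FPKM was 0.840, 1.13, 0.642 and 0.567 in WT1 to WT4, and 0.287, 0.271, 0.296 and 0.524 in KO1 to KO4. All 4 WT ratios were above all 4 KO ratios, with a narrow gap between WT4 and KO4. In KO1 to KO3 Tectb was at less than 0.3 of the Tecta level. As a difference of log2(FPKM + 0.1), WT libraries averaged -0.36 ± 0.42 (SD, n = 4) and KO libraries -1.42 ± 0.38 (SD, n = 4), and KO minus WT was -1.06. This is a description, as Tectb was chosen for its difference. Relative to the other genes, the log2 difference between KO and WT of Tectb was -0.81 against Otog, -1.22 against Otogl, -1.24 against Otoa and -1.39 against Ceacam16, and in each of these the groups did not overlap. These values share the Tectb measurements and carry the difference on which Tectb was selected, so nothing is read from the lack of overlap.

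**Figure D2:**
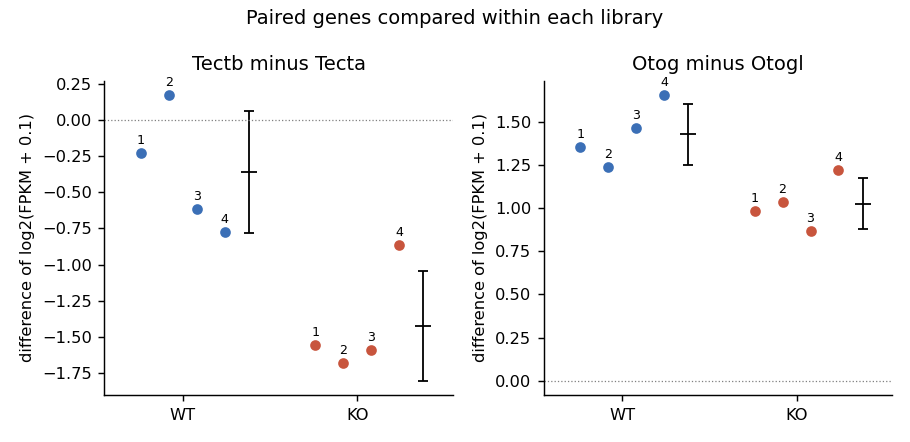
Difference of log2(FPKM + 0.1) within each library (y axis) for Tectb minus Tecta and for Otog minus Otogl, with points numbered by library and bars for mean ± SD (n = 4 per group). In both panels every WT point is above every KO point, with means of -0.36 and -1.42 on the left and 1.43 and 1.03 on the right.

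Otogelin transcripts (Otog) had an FPKM of 6.56, 9.72, 24.2 and 17.0 in WT1 to WT4 and of 7.18, 9.37, 9.93 and 13.7 in KO1 to KO4. WT3 and WT4 were above all KO libraries, WT1 was below all of them, and the groups overlapped. The log2 difference was -0.38 (SE 0.39, 95% interval -1.28 to 0.52), with p = 0.365 and an adjusted p-value of 0.968 in limma and p = 0.457 in the exact two-sided permutation test. Without WT1 it was -0.69 (adjusted p = 0.277 in limma), and without WT3 it was -0.07.

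Otogl, the paralog of otogelin, had an FPKM of 2.50, 4.05, 8.71 and 5.33 in WT1 to WT4 and of 3.59, 4.51, 5.39 and 5.82 in KO1 to KO4. All KO values lay inside the WT range. The log2 difference was 0.02 (SE 0.36, 95% interval -0.79 to 0.84), with p = 0.946 in limma and p = 0.971 in the exact two-sided permutation test. Without WT1 it was -0.27.

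The ratio of Otog to Otogl was steadier than either level. It was 2.62, 2.40, 2.78 and 3.19 in WT1 to WT4 and 2.0, 2.08, 1.84 and 2.35 in KO1 to KO4. All WT ratios were above all KO ratios, but WT2 and KO4 were close. How often the ratios of other gene pairs separate the groups was not counted. As a difference of log2(FPKM + 0.1), WT libraries averaged 1.43 ± 0.18 (SD, n = 4) and KO libraries 1.03 ± 0.15 (SD, n = 4). KO minus WT was -0.40, with p = 0.0286 in an exact two-sided permutation test, the smallest p-value that 4 against 4 libraries can give. It was the only ratio tested. With a pseudocount of 1 in place of 0.1 the exact p-value was 0.0571, and with 1 library left out it was 0.0286 (without WT2 or KO4) or 0.0571 (without any other). Which of the 2 genes the ratio rests on was not tested.

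Otoa, which codes for the limbal anchor otoancorin, had an FPKM of 6.57, 11.5, 21.7 and 16.8 in WT1 to WT4 and of 8.94, 13.7, 16.4 and 15.6 in KO1 to KO4. The KO values again lay inside the WT range. The log2 difference was 0.05 (SE 0.37, 95% interval -0.78 to 0.88), with p = 0.900 in limma and p = 0.943 in the exact two-sided permutation test, and without WT1 it was -0.27.

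Ceacam16, the most abundant transcript of the set, had an FPKM of 55.4, 60.4, 67.0 and 53.5 in WT1 to WT4 and of 53.7, 59.7, 89.2 and 72.9 in KO1 to KO4. KO3 and KO4 were above all WT libraries and the other KO libraries were inside the WT range. The log2 difference was 0.20 (SE 0.18, 95% interval -0.22 to 0.62), with p = 0.306 in limma and p = 0.343 in the exact two-sided permutation test. Without WT1 it was 0.17.

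Thus 0 of the 5 tested genes had an unadjusted p-value under 0.05 in limma or in the exact test. In limma 5.12% of all tested genes did, so 0 of 5 is near that share. The 95% intervals still hold differences of over 0.7 on the log2 scale for Tecta, Otog, Otogl and Otoa, so differences within them were not detectable in these libraries. None of the 6 genes, Tectb included, had groups without overlap in FPKM, whereas 3.5% of all tested genes did.

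**Figure D3:**
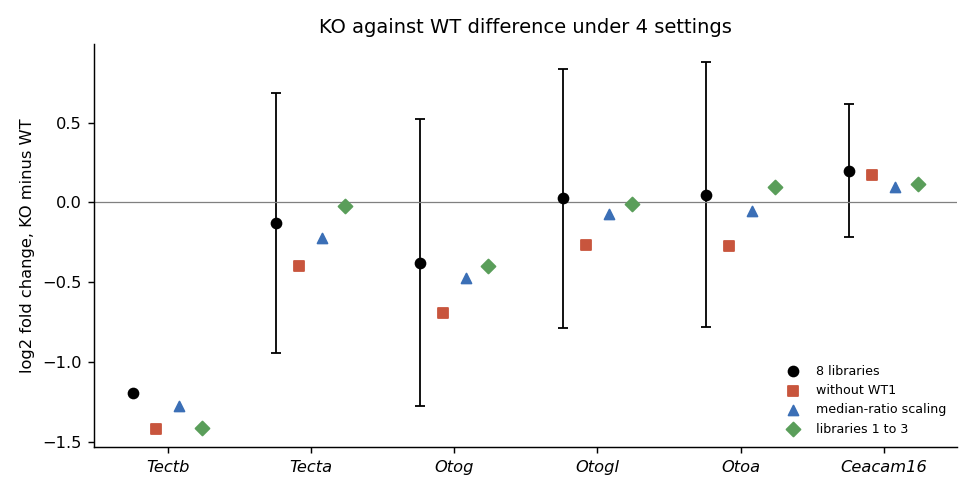
Difference between KO and WT on the log2(FPKM + 0.1) scale (y axis) of the 6 genes with all 8 libraries, without WT1, after median-ratio scaling and with the 6 libraries numbered 1 to 3. Black bars are 95% intervals of the 5 tested genes. Tectb lies between -1.42 and -1.19 in all 4 settings, and the signs of Otogl and Otoa depend on the setting.

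The levels of Tecta, Otog, Otogl and Otoa varied together over the libraries, and both WT1 and WT3 took part in this. WT1 was the lowest and WT3 the highest library for each of these 4 genes, and KO1 was the second lowest. Over the 8 libraries their 6 pairs had Pearson's r of 0.883 to 0.969 and Spearman's rho of 0.905 to 1, with adjusted p-values over all 15 pairs of at most 0.0103 and 0.0114 in exact permutation tests. Without the libraries farthest from the median of the first gene of a pair, r was still 0.809 to 0.948. Left out were WT3 and WT4 for Otog with Otogl and Otog with Otoa, so WT1 stayed in there. For the other pairs of these genes WT1 and WT3 were left out. After each gene had been centred within its genotype, r was 0.949 to 0.973.

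For Tectb, r over all libraries takes in the difference between KO and WT on which it was selected, so it is given with no test. Its r over the 8 libraries was 0.513 with Tecta, 0.713 with Otog, 0.463 with Otogl, 0.428 with Otoa and -0.03 with Ceacam16. Centred within genotype, which removes that difference, r was 0.693 with Tecta, 0.821 with Otog, 0.830 with Otogl, 0.800 with Otoa and 0.578 with Ceacam16. WT1 was the lowest WT library for Tectb as well and WT3 the highest. Ceacam16 had r of 0.222 to 0.515 with the 4 genes that varied together, with adjusted exact p-values of 0.325 to 0.644. All genes of a library share its depth and its mix of tissues.

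The genes with patterns most like that of Tectb over the 8 libraries, by r of log2(FPKM + 0.1), were Sipa1l1 (0.970), Olfml1 (0.968), Tyr (0.959), Ppp1r9a (0.956) and Ppt1 (0.953). Without WT1 they were Fgf11 (0.995), Ntrk3 (0.989), Nalcn (0.988), Nr1d1 (0.986) and Dnal1 (0.982), so the 5 named genes changed with 1 library. For Tecta they were Pcdhb5 (0.985), Sertm1 (0.971), Dsel (0.970), Cyp4f14 (0.967) and Rasef (0.966) over 8 libraries. Without WT1 the genes closest to Tecta were Scn4b (0.992), Pcdhb5 (0.976), Fscn1 (0.971), Slc17a8 (0.967) and Smim19 (0.966). Among all tested genes, Otoa ranked 18 in likeness to Tecta, Otog 34 and Otogl 42. These are the closest of 14990 tested genes over few libraries, and are given as a description. Those named for Tectb share the difference on which it was selected.

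Markers of the other tissues of the dissected cochlea differed widely between libraries. The summed FPKM of 9 marrow markers, globin and neutrophil granule genes among them, was 14366 in WT1, the highest, and 359 in WT3, the lowest, and in KO it ran from 4742 in KO4 to 12812 in KO3. WT1 and WT3 thus were the extremes of the marrow markers and, the other way round, of Tecta, Otog, Otogl and Otoa, but the KO libraries had no such reverse order. All 9 marrow markers had a positive log2 difference, with a median of 2.32, and 0 were called in limma, beside 5.12% of all tested genes. Without WT1, the WT sums of 359 to 3254 were all below the KO sums, and 9 of 9 were called higher in KO, when 12.1% of all tested genes were. The 5 bone markers summed to 35.0 in WT3 and 358 in WT1, and to 192 to 324 in KO. Their median log2 difference was 0.75, with 0 called, beside 5.12% of all tested genes. Without WT1, 2 of the 5 were called higher, Ibsp and Dmp1, when 12.1% of all tested genes were. All 9 hair cell markers and all 10 markers of the supporting cells of the organ of Corti were detected. The hair cell markers summed to 81.8 in WT1 and to 176 to 251 in the other WT libraries, against 112 to 254 in KO. Most of this sum was Pvalb alone, at 46.7 FPKM in WT1, 202 in WT3 and 209 in KO3, so the sum mainly follows that gene. The markers of the supporting cells summed to 319 to 557 in WT and 345 to 431 in KO. The part of this mix in the levels of the 6 genes was not tested.

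Of those hair cell and supporting cell markers, 0 of 9 and 0 of 10 passed an unadjusted p-value of 0.05 in limma, beside 5.12% of all tested genes, and their median log2 differences were 0.02 and 0.03, against 0.10 for all tested genes. Without WT1, Gfi1 of the hair cell list (0.58 on the log2 scale) and Cd44 of the supporting cell list (0.98) were called higher. Prox1 of the supporting cell list (-0.54) was called lower. In that fit 12.1% of all tested genes were called higher and 7.4% lower. Among the WT libraries, Gfi1 and Cd44 were both highest in WT1 and lowest in WT3, as the marrow sums were. Which cells gave these values was not tested. Gjb2, the connexin 26 gene, led the supporting cell list at 145 ± 27.8 FPKM in KO and 165 ± 58.0 in WT (SD, n = 4 each), and Pvalb the hair cell list at 137 ± 56.5 and 141 ± 69.0. The 6 markers of the stria vascularis all had a negative log2 difference, with a median of -0.50. Tyr, the tyrosinase gene of pigment cells, was called lower in KO, beside 0.507% of all tested genes. Its log2 difference was -0.65 (SE 0.24, adjusted p = 0.947 in limma). Without WT1, 5 of the 6 were called lower, while 7.4% of all tested genes were called lower in that fit. Tyr was also among the genes named as most like Tectb over the 8 libraries, but not among those named without WT1. That likeness includes the difference on which Tectb was selected, so nothing is read from it. The part of the strial values in the Tectb level was not tested.

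**Figure D4:**
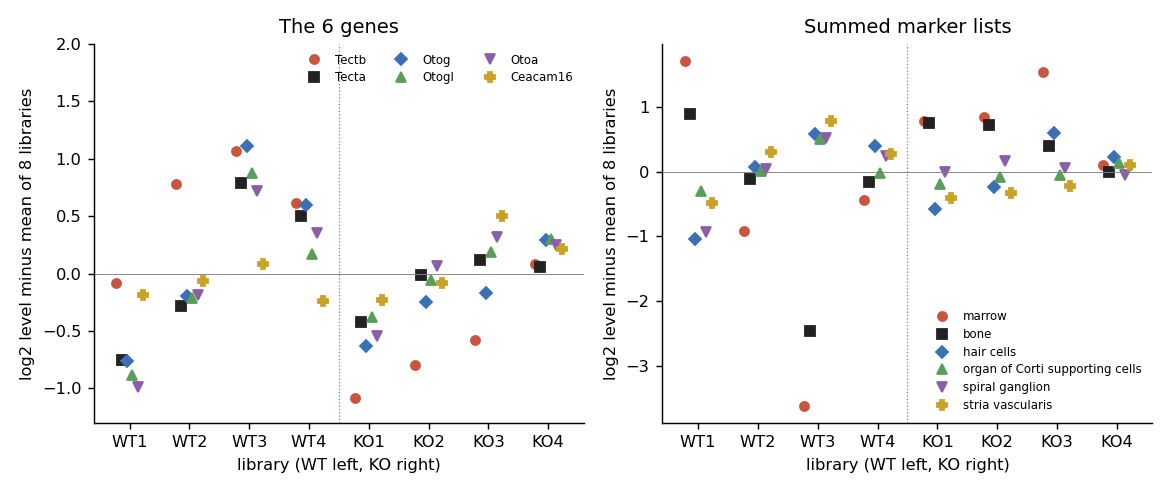
Level of each of the 6 genes (left) and of 6 summed marker lists (right) in each library, on the log2 scale and relative to the mean of the 8 libraries (y axis), with WT libraries left and KO libraries right of the dotted line. Tecta, Otog, Otogl and Otoa are lowest in WT1 and highest in WT3, where the marrow markers are highest (14366) and lowest (359). The hair cell sum is mostly Pvalb.

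Of the other marker lists, the summed FPKM was 375 to 1025 in WT and 689 to 799.9 in KO for 6 spiral ganglion genes, led by Snap25, and 1438 to 2205 in WT and 1608 to 2038 in KO for 4 fibrocyte genes, led by Coch. None of these genes passed the threshold with all 8 libraries, beside 5.12% of all tested genes. Without WT1, Map2 (-0.37 on the log2 scale) and the fibrocyte gene Pou3f4 (-0.32) were called lower, when 7.4% of all tested genes were. The vestibular organs carry tectorin and otogelin matrices too, and 4 vestibular and otoconial genes summed to 1.88 to 13.0 in WT and 4.56 to 9.74 in KO. Otop1, which is needed to form otoconia, had an FPKM of 1.02, 3.49, 6.09 and 3.42 in WT1 to WT4 and of 2.57, 3.52, 4.33 and 5.10 in KO1 to KO4, and WT1 was the lowest. Otol1, an otoconial matrix gene, was called lower without WT1 only (-0.86 on the log2 scale), beside the same 7.4% of all tested genes. Oc90, the main otoconial protein gene, did not exceed 0.284 FPKM in any library. Muscle genes summed to 0.478 to 8.99 in WT and 2.68 to 307 in KO. Of the 6 muscle genes, Mylpf alone was called higher, beside 4.61% of all tested genes. The log2 difference of Mylpf was 2.48 (SE 1.01, adjusted p = 0.947 in limma). Its FPKM was 43.5 in KO3, 1.48 to 4.52 in the other KO libraries and 0.276 to 1.54 in WT. Without WT1 it was again the only muscle gene called, when 12.1% of all tested genes were called higher.

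The fibrils of the tectorial membrane are made of collagens II, IX and XI, and 1 of their 6 genes was called higher, beside 4.61% of all tested genes. Col11a1, a chain of collagen XI, had an FPKM of 21.5, 28.8, 15.8 and 26.3 in WT1 to WT4 and of 36.2, 47.5, 29.7 and 35.5 in KO1 to KO4. All KO values were above all WT values, as in either direction for 3.5% of all tested genes, and the log2 difference was 0.70 (SE 0.22, adjusted p = 0.947 in limma). Col2a1, the main fibril chain, had 34.4 ± 14.8 in WT and 54.8 ± 16.9 in KO (SD, n = 4 each), which did not pass the threshold. Cartilage and bone of the cochlea express these collagens too.

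WT1 was low in the fibril genes. Col11a2 had 21.6 FPKM in WT1 and 104.5 to 107 in the other WT libraries, and Col9a2 had 2.56 in WT1 and 29.5 to 39.8 in the others. Without WT1, 1 of the 6 collagen genes was called higher and 3 lower, beside 12.1% and 7.4% of all tested genes. Those lower were the collagen IX genes, Col9a1 at -0.63, Col9a2 at -0.76 and Col9a3 at -0.83 on the log2 scale. With all 8 libraries their log2 differences were -0.16, 0.15 and -0.12. The median log2 difference of the 6 genes was 0.39 with all libraries, beside 0.10 for all tested genes.

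Among other genes with a ZP module, 3 of 12 passed the filter on low values. At an unadjusted p-value under 0.05 in limma, 0 of these 3 were called, beside 5.12% of all tested genes. Eng and Tgfbr3, which code for co-receptors of the TGF-beta family, had log2 differences of 0.13 and 0.01. Dmbt1, a secreted epithelial glycoprotein gene, had 114 FPKM in KO1 and at most 1.53 in any other library, so that it passed the filter through 1 library. The egg coat genes Zp1, Zp2 and Zp3 did not exceed 0.372 FPKM.

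The other paralog families of the set gave no call with all 8 libraries either, beside 5.12% of all tested genes. Of the gel-forming mucins and Vwf, which share domains with the otogelins, only Vwf passed the filter, at 13.1 ± 2.80 FPKM in WT and 16.5 ± 3.57 in KO (SD, n = 4 each), and it was not called. Strc and Msln, relatives of Otoa that code for stereocilin and mesothelin, had log2 differences of -0.06 and -0.0030 and levels of 1.29 ± 0.395 and 3.37 ± 0.611 FPKM in WT (SD, n = 4 each). In the Ceacam family, Ceacam1, Ceacam2 and Ceacam10 were tested, and 0 were called. Without WT1, which had the highest values of Ceacam1 and Ceacam10, both of these were called higher in KO, at 0.92 and 1.03 on the log2 scale, when 12.1% of all tested genes were. Ceacam18, Ceacam19 and Ceacam20 did not exceed 0.0402 FPKM, and Ceacam16 was above each of these 6 relatives in every library.

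Thyroid hormone is known to drive the maturation of the tectorial membrane, and 4 of 5 genes of its axis were tested. Thrb, the receptor gene needed for hearing, was called lower in KO at the unadjusted threshold, beside 0.507% of all tested genes. It had an FPKM of 8.76, 10.9, 9.19 and 9.43 in WT1 to WT4 and of 8.79, 5.29, 7.51 and 6.91 in KO1 to KO4, and only KO1 reached into the WT range. The log2 difference was -0.44 (SE 0.18, adjusted p = 0.947 in limma) and without WT1 it was -0.48. Thra, a further receptor gene, and Dio2, which codes for the enzyme that activates the hormone, had log2 differences of 0.23 and 0.34 and were not called. Over the 6 lists of matrix relatives and thyroid genes and the 9 marker lists, 77 of 97 genes were tested, of which 2 were called higher and 2 lower, compared with 4.61% and 0.507% of all tested genes.

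Exact sequence shared with other annotated genes was counted, but the part of such reads in these values was not tested. Of the 50-base words of their transcripts, Tecta, Otogl and Ceacam16 shared 0 with any other gene, Otog 0.0291%, Tectb 0.205% and Otoa 0.305%. Tectb holds the microRNA gene Mir6715 on its own strand, which accounts for its shared words. The gene Gm19345 lies on the other strand of Ceacam16 and an antisense gene, Gm47629, on that of Tecta. The libraries were strand-specific, but whether the FPKM took the strand into account was not tested.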

How the data were processed

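Total RNA from whole cochleae was made into strand-specific libraries after removal of ribosomal RNA. The authors aligned read pairs with Hisat2. They deposited FPKM, a unit that divides fragments by transcript length and by the mapped total, and the tool that gave it is not given in the sources used here. The authors tested counts with DESeq2, which was not repeated. The submitters' processing notes name mm9, but the coordinates of the 6 genes are those of GENCODE release 21 on GRCm38. The study describes its comparison with 3 libraries per group, whereas 4 per group are analysed here, so the libraries numbered 1 to 3 were tried as an alternative. No per-sample column was left unused (0).

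The 14990 genes whose mean FPKM reached 0.5 were tested on log2(FPKM + 0.1) with limma 3.58.1 in R 4.3.3, with genotype as the only factor, moderated variances and a mean-variance trend. A gene was called at an unadjusted p-value under 0.05 (two-sided), as in the study, with Benjamini-Hochberg values beside. Exact permutation tests used Python 3.11.15. The 6 genes, the gene lists and the tests were chosen with earlier results of these data known. Besides the 6 genes, those named are the called members of the lists, at most 3 others per list with the highest mean FPKM, the genes most correlated with Tectb or Tecta, and the neighbours of Tectb in the order of log2 differences. A single item under this rule is not reported here. Others (the egg coat genes, Oc90, Col9a1, Col9a3, genes called only without WT1, Ceacam18, Ceacam19 and Ceacam20) were named after their values were seen. The fit was tested on simulated data. Alternatives were pseudocounts of 1 and 0.01, other filters and scalings, no trend, a replicate block, 6 libraries, and leaving out each library. Protein sequences were not used here.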

Additional observations from a re-analysis of the deposited data

Results flagged for a closer look

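In groups of 4 libraries, a value was picked out when 1 library lay far from the other 3 for the spread of its group. Of 72 groups examined, 11 values were picked out, where chance picks about 1 in 20 groups. Among the 6 genes the only such value was the Tectb minus Tecta log2 difference in KO4, -0.86, against -1.68 to -1.56 in the other KO libraries. Tectb, Tecta, Otog, Otogl, Otoa and Ceacam16 gave none by themselves.

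WT1 stood apart in Col11a2 (21.6 FPKM, against 104.5 to 107 in the other WT libraries), Ceacam1 (37.2, against 6.45 to 8.18) and Ceacam10 (5.67, against 0.894 to 1.14). KO1 stood apart in Dmbt1 (114, against 0.0104 to 1.53) and in Dio2 (14.6, against 10.1 to 10.3). KO4 was high in Col9a2 (28.4, against 17.0 to 17.8) and in Dct, a pigment cell gene (69.2, against 49.1 to 51.4). KO3 was high in the muscle genes Mylpf (43.5, against 1.48 to 4.52) and Acta1 (142, against 0.293 to 10.2). In WT, Dmbt1 was 0.121 in WT4 and at most 0.0132 in the others.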

How the results depend on the processing

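Tectb stayed lower in KO under all 18 alternatives, between -1.58 (quantile normalization) and -0.62 (pseudocount 1), and without 1 library between -1.42 and -1.03. Its difference from Tecta was -0.51 with a pseudocount of 1 and -1.25 to -0.89 without 1 library. Tecta, Otog, Otogl, Otoa and Ceacam16 passed the threshold under none of the alternatives (limma p of at least 0.0574), and Otog and Ceacam16 kept their direction. Tecta changed sign without WT3 (0.11) and without WT4 (0.02), and ranged from -0.40 to 0.11 without 1 library. Otogl changed sign with median-ratio scaling (-0.072), quantile normalization (-0.12), the 6 libraries numbered 1 to 3 (-0.0087), and without WT1 (-0.27), WT2 (-0.04), KO3 (-0.04) or KO4 (-0.07), with a range of -0.27 to 0.32. Otoa changed sign with median-ratio scaling (-0.052), quantile normalization (-0.050), and without WT1 (-0.27), WT2 (-0.01), KO3 (-0.05) or KO4 (-0.03), with a range of -0.27 to 0.30. The combination of median-ratio scaling without WT1, added after the data were seen, gave -0.26 for Otogl and -0.26 for Otoa.

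The Otog minus Otogl difference kept its direction but not its exact p-value with a pseudocount of 1 (-0.36, p = 0.0571), with the 6 libraries (-0.39, exact p = 0.1, the smallest possible) and without 1 library (-0.47 to -0.33, exact p of 0.0286 to 0.0571).

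The number of called genes, 767, ranged from 347 to 2922 without 1 library (292 to 1810 higher and 35 to 1112 lower), and the 2922 came without WT1, 377 without KO2 and 347 without KO3. With median-ratio scaling, 401 were higher and 362 lower, with quantile normalization 378 and 547, and with scaling and without WT1 3253, namely 1947 and 1306. Without the filter 148 were lower, and with the 6 libraries 42. The cause was not tested.

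WT and KO libraries share replicate numbers. Libraries of the same number deviated from their groups with correlations of 0.419, -0.24, -0.17 and 0.21. Libraries of unlike number were not compared, so these values cannot settle whether the numbers pair the libraries. With the replicate block 838 genes were called, Tectb was at -1.19, and the Otog minus Otogl difference was -0.40 with an exact p of 0.125, the smallest that 4 pairs allow. FPKM carry no counts, so depth limits Tectb most, with the fewest estimated fragments of the 6 genes.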
